A study of Rattus norvegicus with 16 samples.

Results

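The genes described here are 10 transcripts that mark fibro-adipogenic progenitors and fibroblasts of skeletal muscle: Pdgfra, Pdgfrb, Cd34, Dcn, Lum, Dpt, Gsn, Fn1, Fap and Pi16. They were taken by name from a table of 17147 genes measured in 16 libraries of rat supraspinatus, a rotator cuff muscle. All 10 had an entry. The low-count filter kept 9 of them among 11658 tested genes, and Cd34 was listed at 0 in every library. The Sprague Dawley rats fell into 4 groups of 4 libraries: unoperated controls (0 days), and muscle taken 10, 30 or 60 days after surgery. The surgery tore the supraspinatus through its full thickness on both sides and cut its suprascapular nerve, so each operated group carried tear and denervation together. Ages and the rat behind each library were not given in the sources used here, and p-values measure only the spread between these libraries, which may be technical. The 3 comparisons with 0 days share their control libraries.

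Fibro-adipogenic progenitors are mesenchymal cells that lie between muscle fibres and are recognised by the receptor Pdgfra. They expand after injury, lay down matrix and support regeneration, and in chronically damaged or denervated muscle they can become fibroblasts or fat cells. Rotator cuff tears in particular are known for fibrosis and fat in the torn muscle. Most of these genes are also expressed by other cells: Pdgfrb by pericytes, Gsn by muscle and macrophages, Fn1 by endothelium and macrophages, Dcn and Lum by tenocytes. In whole muscle, more cells of a type and more RNA per cell cannot be told apart.

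Library totals ran from 17.2 to 39.9 M fragments (M, mega), and the 60-day libraries were the shallowest at 17.2 to 22.4 M. Levels below are CPM, fragments per 1 M fragments after TMM scaling, which sets libraries to a common level over most genes; they are not divided by gene length, so they are not compared between genes. Changes are log2 fold changes ± standard error (SE) from edgeR's quasi-likelihood test, with p-values adjusted by Benjamini-Hochberg over all tested genes. A gene was called at an adjusted p under 0.05. Cd34, a sialomucin of progenitor and endothelial cells, stood at 0 beside Hprt1, a gene used by every cell, and Col1a2, a collagen of fibroblasts, so no level or limit is given for it.

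Of the 9 tested genes, 3 were higher and 1 lower at 10 days, 8 were higher at 30 days, and all 9 were higher at 60 days than at 0 days. Change was common in this muscle: 62.7%, 64.6% and 59.0% of all tested genes were called in either direction at 10, 30 and 60 days, and 33.3%, 33.7% and 29.9% were called higher. The median log2 change of the 9 genes was 0.39, 1.34 and 1.48, beside 0.06, 0.05 and 0.04 over all tested genes. At 10 days 29.4% of all tested genes were called lower. Operated and control ranges were apart for 3, 8 and 9 of the genes, and for 59.0%, 60.2% and 50.0% of all tested genes. A joint test of the 4 groups called all 9 genes and 84.7% of tested genes. Pdgfra, Lum and Fn1 were called higher at all 3 times, as were 16.6% of tested genes. The plot of levels by library shows the time course of each gene, described next.

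**Figure D1:**
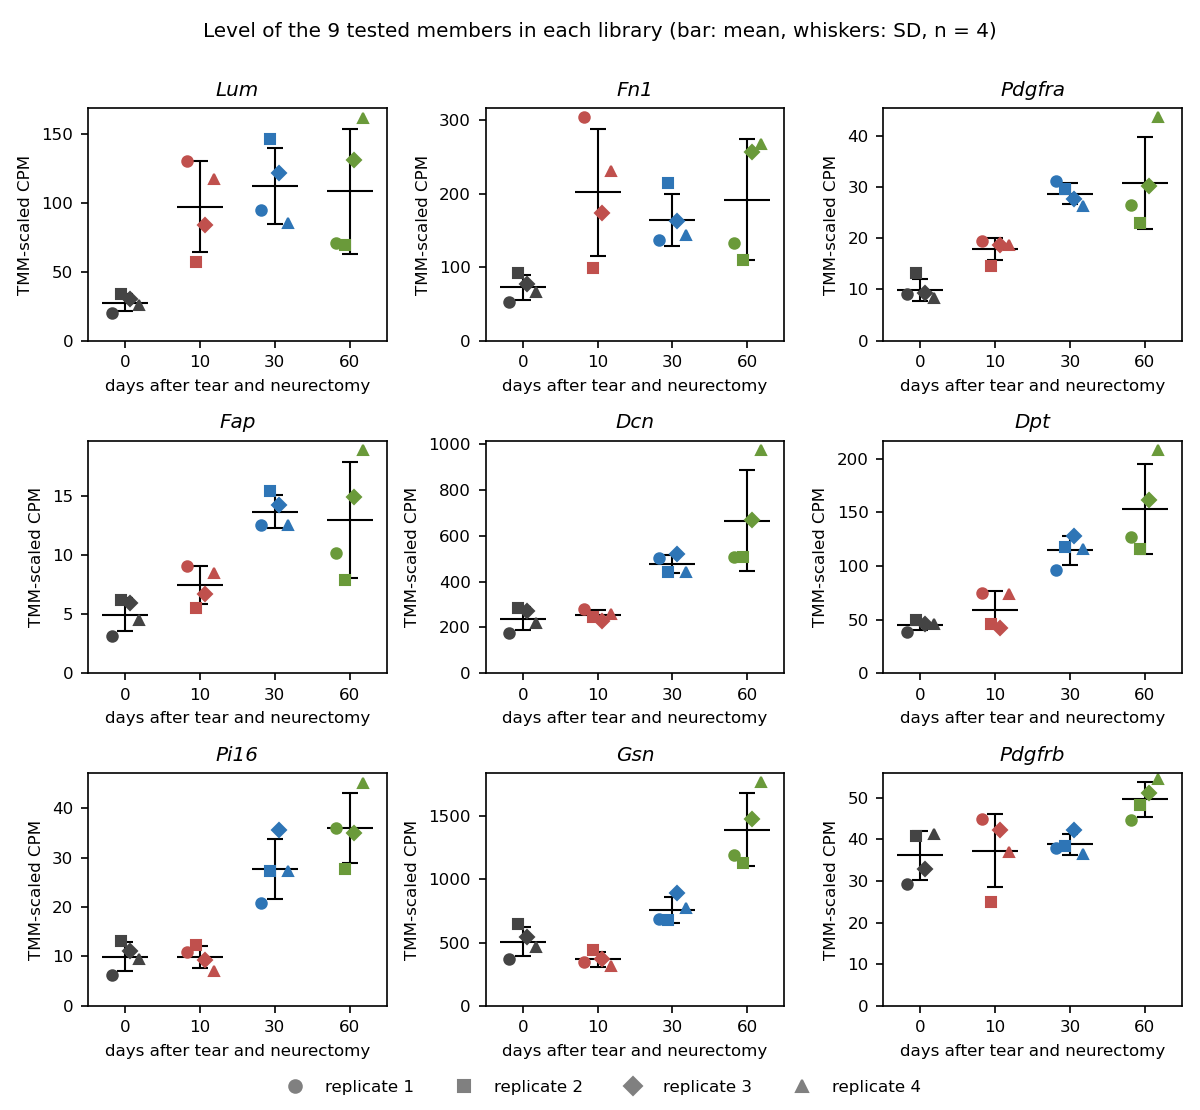
Levels of the 9 tested genes in TMM-scaled CPM (vertical axes) by days after surgery (horizontal axes), 1 point per library, with bars for group means and whiskers for the SD (n = 4). Pdgfra, Lum and Fn1 lie above the controls at 10 days, whereas Dcn, Dpt and Pi16 overlap them then and lie above them at 30 and 60 days.

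Lum encodes lumican, a small leucine-rich proteoglycan that binds collagen fibrils. Its level was 20.1, 33.9, 30.7 and 26.2 CPM in the 4 control libraries and 130.5, 57.4, 84.3 and 118 CPM at 10 days. It was 94.7, 147, 122 and 85.8 CPM at 30 days and 71.3, 69.7, 131 and 162 CPM at 60 days. Every operated library lay above every control, and the 3 operated groups overlapped each other. Lum rose by 1.81 ± 0.31 at 10 days (edgeR adjusted p = 9.456e-05), by 2.02 ± 0.31 at 30 days (edgeR adjusted p = 3.868e-05) and by 1.97 ± 0.31 at 60 days (edgeR adjusted p = 6.631e-05). No later change passed the test: 30 against 10 days gave 0.21 and 60 against 30 days gave -0.05.

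Fn1 encodes fibronectin, the glycoprotein that forms the provisional matrix of wounds. It stood at 52.7, 92.6, 77.9 and 66.8 CPM in the controls and at 304, 99.3, 173 and 231 CPM at 10 days. At 30 days the values were 137, 215, 162 and 144 CPM, and at 60 days they were 133, 109.6, 257 and 268 CPM. The lowest operated library was still above the highest control, but the 10-day libraries spread widely. The rise was 1.48 ± 0.33 at 10 days (edgeR adjusted p = 0.001118), then 1.18 ± 0.33 after 30 days and 1.40 ± 0.33 after 60 days. No pair of operated groups differed enough to be called.

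Pdgfra encodes the PDGF receptor alpha that defines these progenitors. Controls held 9.11, 13.1, 9.28 and 8.38 CPM, and the 10-day libraries 19.5, 14.7, 18.6 and 18.7 CPM. The level was 31.1, 29.5, 27.7 and 26.3 CPM at 30 days and 26.5, 23.1, 30.2 and 43.6 CPM at 60 days. Controls, 10-day and 30-day libraries formed 3 separate ranges, and the 60-day range overlapped that at 30 days. Pdgfra rose by 0.83 ± 0.18 at 10 days (edgeR adjusted p = 0.0006346) and by 1.52 ± 0.18 at 30 days (edgeR adjusted p = 2.142e-06). At 60 days it was up by 1.62 ± 0.18, and the 30-day level exceeded the 10-day level by 0.68 ± 0.17.

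Pdgfrb encodes the PDGF receptor beta, which pericytes carry as well. Its level was 29.4, 40.8, 33.0 and 41.4 CPM in controls and 45.0, 25.1, 42.3 and 36.9 CPM at 10 days. It was 37.9, 38.4, 42.4 and 36.6 CPM at 30 days and 44.7, 48.3, 51.1 and 54.4 CPM at 60 days. All 4 of the 60-day libraries were above the other groups, apart from 1 library at 10 days, and the first 3 groups overlapped. The difference from controls was 0.05 ± 0.15 at 10 days and 0.10 ± 0.15 at 30 days, neither called, and Pdgfrb rose by 0.46 ± 0.15 at 60 days (edgeR adjusted p = 0.01495). That last call was lost when 0-day replicate 1 and 60-day replicate 4 were both removed (0.34, edgeR adjusted p = 0.1012). Pericyte markers went the other way at first: 6 of 7 were called lower at 10 and at 30 days, and at 60 days 2 were lower and 1 higher. Their summed level fell outside the control range of 403 to 469 CPM in every operated library (295 to 310 CPM at 60 days). Abcc9 made up much of that sum, with means of 236 CPM in controls and 151 CPM at 60 days, and was not called at 10 days. The 2 markers lower at 60 days were Abcc9 and Rgs5, and the 1 higher was Cspg4. Kcnj8, Notch3, Mcam and Higd1b were not called then. The part of pericytes in the Pdgfrb values was not tested.

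The windows of 250 bases before the annotated start are shown for Lum and Pdgfra, called higher by 10 days, and further on for Dpt and Gsn, whose largest rise came later. They are from RefSeq on assembly GRCr8, read on the gene's strand, and 7 of the 10 genes had an entry. The deposited table was made on build rn5 and holds no coordinates. Capitals mark matches on either strand to 9 motifs: the TATA box (TATAAA), the CCAAT box (CCAAT), the GC box (GGGCGG), the AP-1 motif (TGANTCA), the CRE (TGACGTCA), a TEAD motif (GGAATG), a SMAD palindrome (GTCTAGAC), a short SMAD motif (CAGAC) and the CArG box. No match overlapped another in the 4 windows shown.
Lum: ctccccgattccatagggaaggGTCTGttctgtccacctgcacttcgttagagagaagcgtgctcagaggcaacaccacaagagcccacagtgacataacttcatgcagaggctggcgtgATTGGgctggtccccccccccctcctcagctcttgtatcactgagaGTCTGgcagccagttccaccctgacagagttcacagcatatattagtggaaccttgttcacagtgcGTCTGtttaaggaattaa
Pdgfra: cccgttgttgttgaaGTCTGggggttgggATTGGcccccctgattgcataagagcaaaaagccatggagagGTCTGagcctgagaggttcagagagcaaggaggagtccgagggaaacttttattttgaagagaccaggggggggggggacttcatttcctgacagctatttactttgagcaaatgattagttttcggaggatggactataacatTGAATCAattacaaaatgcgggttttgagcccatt
The Lum window lies at chr7:34245456-34245705 on the plus strand and the Pdgfra window at chr14:33408517-33408766 on the minus strand. Pdgfra holds TGANTCA, the AP-1 motif, 35 bases before its start, and 6.34% of all 33469 windows hold that motif. CCAAT is found in both, at 130 bases before the start in Lum and 221 in Pdgfra, and in 34.0% of all windows. CAGAC occurs 3 times in Lum and 2 times in Pdgfra, beside 42.9% of windows with at least 1. These matches describe letters and do not show that a factor binds.

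Dcn encodes decorin, a proteoglycan that binds collagen and TGF-beta. Controls measured 178, 283, 273 and 221 CPM and 10-day libraries 282, 244, 229.7 and 260.5 CPM. The values were 501, 443, 521 and 442 CPM at 30 days and 509.7, 509.6, 669 and 975 CPM at 60 days. Libraries of the first 2 groups interleaved, and every library at 30 and 60 days was above them. The difference at 10 days was 0.09 ± 0.18 (edgeR adjusted p = 0.6879). Dcn then rose by 1.00 ± 0.18 at 30 days and by 1.48 ± 0.19 at 60 days (edgeR adjusted p = 7.129e-06), and from 10 to 30 days by 0.91 ± 0.18.

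Dpt encodes dermatopontin, a matrix protein that binds decorin and is made by most tissue fibroblasts. It was at 38.6, 50.0, 46.2 and 45.5 CPM in controls and at 74.7, 46.3, 42.2 and 73.7 CPM at 10 days. It was at 96.5, 118, 128 and 116 CPM at 30 days and at 127, 116, 162 and 208 CPM at 60 days. At 10 days 2 libraries stood above all controls and 2 within their range, while no later library overlapped the controls. The 10-day difference of 0.39 ± 0.20 was not called (edgeR adjusted p = 0.09981). It was called when 10-day replicate 3 was left out (0.52) and with library totals as the scaling (1.05). Dpt rose by 1.34 ± 0.20 at 30 days and by 1.76 ± 0.20 at 60 days (edgeR adjusted p = 3.721e-06).

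Pi16 encodes a peptidase inhibitor found on adventitial fibroblasts that are held to be a reserve for other fibroblasts. The controls gave 6.30, 13.1, 11.2 and 9.39 CPM and the 10-day libraries 11.0, 12.3, 9.26 and 7.07 CPM. The level was 20.8, 27.3, 35.6 and 27.3 CPM at 30 days and 36.0, 27.8, 35.0 and 45.2 CPM at 60 days. Groups at 0 and 10 days covered the same range, and both lay below all later libraries. Its change was -0.02 ± 0.23 at 10 days, then 1.46 ± 0.22 at 30 days (edgeR adjusted p = 3.683e-05) and 1.84 ± 0.23 at 60 days (edgeR adjusted p = 5.81e-06). From 10 to 30 days Pi16 rose by 1.49 ± 0.22, the largest step among the 9 genes in that comparison.

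Fap encodes fibroblast activation protein, a surface protease of activated fibroblasts. Its values were low throughout, at 3.15, 6.16, 5.98 and 4.50 CPM in controls and 9.08, 5.55, 6.72 and 8.51 CPM at 10 days. They were 12.5, 15.4, 14.2 and 12.5 CPM at 30 days and 10.2, 7.85, 14.9 and 18.9 CPM at 60 days. The lowest 10-day library lay inside the control range and the 60-day libraries spanned more than those at 30 days. The 10-day difference was 0.58 ± 0.25 (edgeR adjusted p = 0.05685), and it was called when any 1 of 5 libraries was left out: 0-day replicate 2 or 3, 10-day replicate 2, or 60-day replicate 2 or 4. It was also called with upper-quartile factors (0.64), with library totals (1.24) and in a fit of only those 2 groups (0.56). The rise of Fap was 1.46 ± 0.25 at 30 days, with an edgeR adjusted p of 0.0001185, and 1.38 ± 0.26 at 60 days, with one of 0.0002719.

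Gsn encodes gelsolin, a protein that cuts and caps actin filaments and is abundant in fibroblasts of many tissues. It measured 373, 650.5, 544 and 467 CPM in controls and 345, 445, 367 and 312 CPM at 10 days. It measured 688, 677, 896 and 774 CPM at 30 days and 1196, 1132.5, 1481 and 1768 CPM at 60 days. At 10 days 3 libraries lay below all controls and 1 within their range, and the 10-, 30- and 60-day groups did not overlap each other. Gsn fell by 0.47 on the log2 scale at 10 days (SE 0.17, edgeR adjusted p = 0.02522), a call lost when any 1 of 4 libraries was left out (0-day replicate 2 or 3, 10-day replicate 1 or 4; edgeR adjusted p up to 0.108). It rose by 0.58 ± 0.17 at 30 days and by 1.45 ± 0.18 at 60 days (edgeR adjusted p = 3.891e-06).
Dpt: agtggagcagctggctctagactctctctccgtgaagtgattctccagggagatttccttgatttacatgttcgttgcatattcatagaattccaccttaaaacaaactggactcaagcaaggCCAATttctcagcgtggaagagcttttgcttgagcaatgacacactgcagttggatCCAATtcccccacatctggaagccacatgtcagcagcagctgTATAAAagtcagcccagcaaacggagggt
Gsn: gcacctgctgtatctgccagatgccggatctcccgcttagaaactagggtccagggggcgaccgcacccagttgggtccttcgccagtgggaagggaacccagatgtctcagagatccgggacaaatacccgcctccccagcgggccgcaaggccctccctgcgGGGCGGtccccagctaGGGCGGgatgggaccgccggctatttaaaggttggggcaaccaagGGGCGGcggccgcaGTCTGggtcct
These windows of Dpt (chr13:79656091-79656340, plus strand) and Gsn (chr3:39008682-39008931, plus strand) are shown because both genes rose most after 10 days. Capitals mark the same motifs. Dpt has TATAAA 29 bases before its start, found in 12.9% of all windows, and CCAAT at 127 and 71 bases. Gsn has GGGCGG, the GC box, at 86, 70 and 25 bases, found in 30.5% of windows. CAGAC, named above for Lum and Pdgfra, also occurs in Gsn, 11 bases before its start. The windows of Cd34, Fap and Pi16, which are not shown, hold CAGAC as well. Of the 9 motifs, 5 matched at least 1 of the 7 windows. The CRE, the TEAD motif, the SMAD palindrome and the 1 searched form of the CArG box matched none. They were present in 1.59%, 12.1%, 0.173% and 0.0299% of all windows. Other forms of the CArG box were not searched.

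Between operated groups, 6 of the 9 genes rose from 10 to 30 days and none fell: Pdgfra, Dcn, Dpt, Gsn, Fap and Pi16. Of all tested genes 47.3% were called in this step and 23.0% were called higher, and the 2 ranges were apart for the same 6 genes and for 43.8% of tested genes. Only Gsn was called between 30 and 60 days, at 0.88 ± 0.17 (edgeR adjusted p = 0.002135), where 22.6% of all tested genes were called and 10.3% were called higher. Ranges were apart for Gsn and Pdgfrb in that step, and for 20.1% of tested genes. Over the longer step from 10 to 60 days 7 genes rose, beside 61.1% of tested genes called and 29.1% called higher. The ranges were apart for 5 of them and for 51.2% of tested genes. Gsn moved most among them, by 1.93 ± 0.18 (edgeR adjusted p = 2.035e-07). Pdgfrb was called in that step as well (0.41 ± 0.15, edgeR adjusted p = 0.02366), but not without 10-day replicate 2 or without 60-day replicate 4. Median log2 differences of the 9 genes were 0.87, 0.36 and 0.80 in these 3 comparisons, beside 0.03, -0.01 and -0.01 over all tested genes. The plot of changes sets the 3 times side by side.

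**Figure D2:**
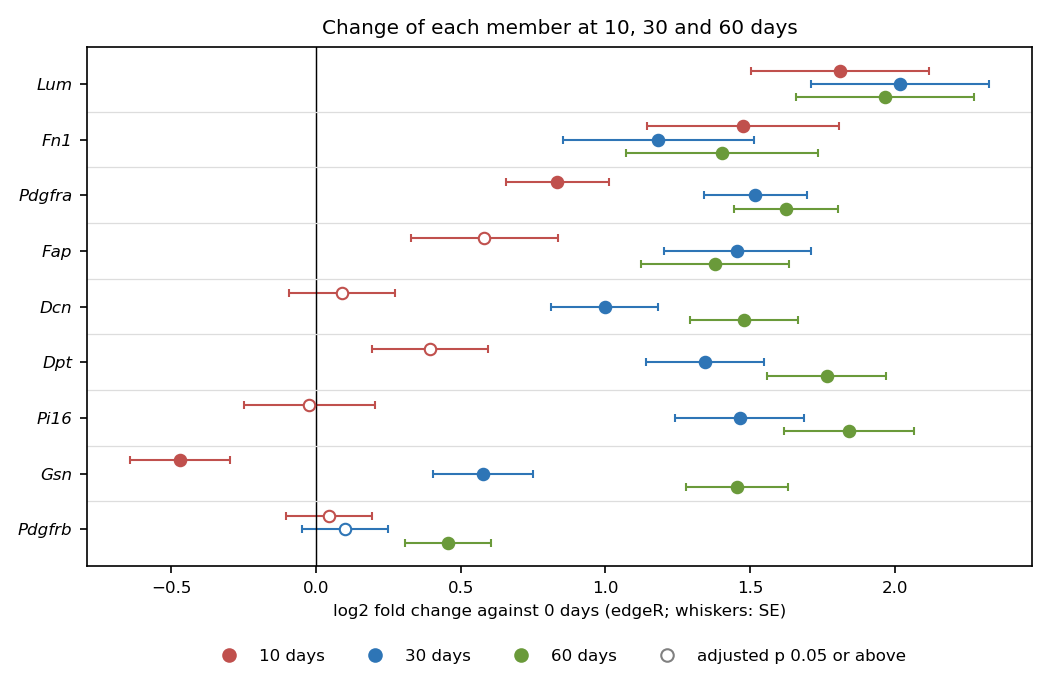
Log2 fold change against 0 days with its SE (edgeR) for each of the 9 tested genes at 10, 30 and 60 days. Lum stays near 2 at all times, and Gsn goes from -0.47 at 10 days to 1.45 at 60 days.

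The calls at 10 days depended on how libraries were scaled. The TMM factors were 0.750 to 0.775 in controls and 1.18 to 1.24 at 10 days. With library totals alone, the median change of all tested genes at 10 days moved from 0.06 to 0.72, and 80.2% of tested genes were called. Under that scaling 8 of the 9 genes were called higher at 10 days and none lower, Gsn stood at 0.19 (edgeR adjusted p = 0.3186), and Pi16 at 0.64. On the TMM scale all 9 tested muscle fibre markers were called lower at 10 days. Their summed level on that scale was 51858 to 56404 CPM at 10 days against 215213 to 235584 CPM in controls. They were not counted under library totals, and their part in the scaling was not tested. At 30 and 60 days all calls against 0 days held under each scaling, and library totals added Pdgfrb at 30 days (0.59).

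Ratios of 2 genes within a library do not depend on scaling. The log2 ratio of Lum to Dcn was -3.15, -3.06, -3.15 and -3.08 in the controls and -1.11, -2.09, -1.45 and -1.15 at 10 days. At 30 days it was -2.40, -1.59, -2.09 and -2.36, and at 60 days -2.84, -2.87, -2.35 and -2.59. No operated library overlapped the controls, and the 10-day and 60-day ranges were apart. The difference from 0 days was 1.66 at 10 days, 1.00 at 30 days and 0.45 at 60 days. Fn1 to Dcn gave 1.28, 0.17 and -0.12 at those times, and Pdgfra to Pdgfrb 0.83, 1.42 and 1.14.

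**Figure D3:**
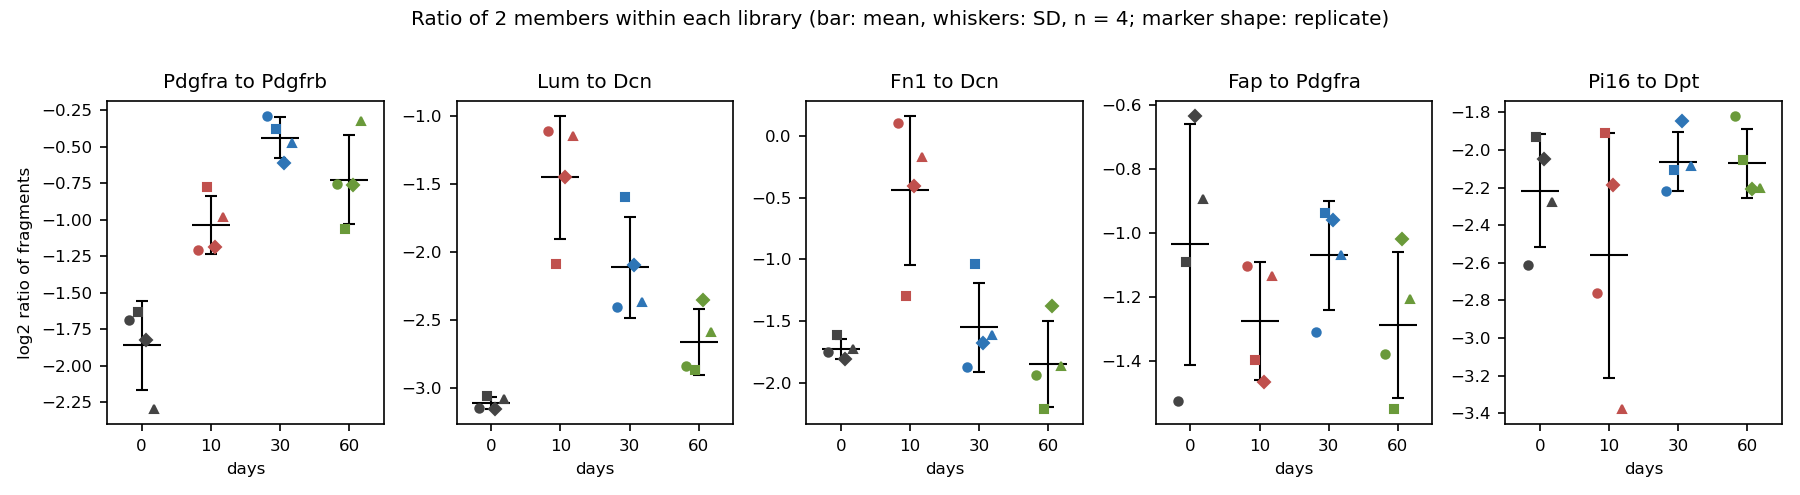
Log2 ratios of pairs of genes within each library (vertical axes) by days after surgery, 1 point per library, with bars for group means and whiskers for the SD (n = 4). Lum to Dcn and Fn1 to Dcn are highest at 10 days, and Pdgfra to Pdgfrb is above the controls at all 3 times.

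An exact two-sided permutation test of 4 against 4 libraries cannot give a p below 0.0286. Of 20 such tests, 9 reached it in the exact permutation test, and after adjustment over the 20 their p was 0.0635, so none passed 0.05. They were all 4 tests of Lum to Dcn, the 10-day and the 60-against-10-day test of Fn1 to Dcn, and the 3 tests of Pdgfra to Pdgfrb against 0 days. The other 11 tests did not reach an unadjusted p of 0.05. They were Fn1 to Dcn at 30 and 60 days, Pdgfra to Pdgfrb at 60 against 10 days (0.31), and all 4 tests each of Fap to Pdgfra and Pi16 to Dpt. Against 0 days, Fap to Pdgfra differed by -0.24, -0.03 and -0.25, and Pi16 to Dpt by -0.34, 0.15 and 0.14. The ratio of Cd34 to Pdgfra was planned and could not be computed.

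Libraries of a group tended to be high or low for many of these genes together. Of the 9 genes, 60-day replicate 4 was the highest of its group for 9 and 60-day replicate 2 the lowest for 8. Control replicate 1 was the lowest for 8 and control replicate 2 the highest for 8. The SD as a share of the mean was larger at 60 than at 30 days for 8 of 9 genes. Neither these ranks nor this spread was computed over all tested genes, so they may not be particular to the 9 genes. In 60-day replicate 4 the summed macrophage markers were 306 CPM, beside 173 to 206 CPM in the other 3, and the summed tenocyte markers 302 CPM, beside 126 to 251 CPM. The part of those cells in the values was not tested. With control replicate 1 and 60-day replicate 4 removed, a choice made after the values were seen, Pdgfrb at 60 days was the 1 call lost among the comparisons of the 9 genes.

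Other genes linked to progenitors and fibroblasts did not all follow, and which cells of the muscle expressed them was not tested. The related lists were read from the same fit, and their shares stand beside the 62.7%, 64.6% and 59.0% of all genes called. Neither they nor the marker lists of other cells were counted under other scalings. Library totals moved the median of all tested genes at 10 days from 0.06 to 0.72, so the 10-day counts of the lists may depend on the scaling. Of 16 tested progenitor and fibroblast identity genes, 7 rose and 4 fell at 10 days, and 9 rose and 2 fell at 30 days. At 60 days 13 rose and 1 fell. The median log2 changes at these times were 0.31, 0.92 and 0.97. Cd248, also in that list, was listed at 0 in every library. Thy1, a surface glycoprotein of fibroblasts, rose by 2.54 ± 0.46 at 10 days, and Serpinf1, a secreted serpin, by 1.86 ± 0.17 at 30 days. Osr1, a transcription factor of progenitors, fell by 0.87 at 30 days. Col15a1, a basement membrane collagen, fell by 0.84 at 10 days and rose by 0.83 ± 0.22 at 60 days.

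The list of small leucine-rich proteoglycans, relatives of Dcn and Lum, held 12 genes, of which 5 were tested. Ogn, Omd and Aspn were listed at 0 in every library, as Cd34 was, and Ecm2, Podn and Podnl1 had no entry. Of the 5 tested genes, 4 rose at each time and none fell. Bgn, which encodes biglycan, went from 30.6 ± 6.53 CPM (SD, n = 4) in controls to 149 ± 41.2 CPM at 10 days, a rise of 2.28 ± 0.25, and stood 2.55 ± 0.25 higher at 30 days. Chad, chondroadherin, which is also in the list of tenocyte markers, rose by 1.97 ± 0.40 at 30 days. Of the genes linked to Pi16-positive fibroblasts, 10 were tested: 1 rose and 6 fell at 10 days, 3 rose and 4 fell at 30 days, and 4 rose and 1 fell at 60 days. Fbln1, a matrix fibulin, rose by 1.45 ± 0.22 at 10 days, and Mfap5, a microfibril protein, by 1.78 ± 0.22 at 60 days. Cd55, a complement regulator, fell by 1.69 at 10 days and stayed lower by 0.74 at 60 days (-0.74 ± 0.14).

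Among 11 myofibroblast genes 6 rose and 5 fell at 10 days, 6 rose and 1 fell at 30 days, and 4 rose at 60 days with none falling. Cthrc1, a secreted collagen-triple-helix protein, went from 0.370 ± 0.0649 CPM to 15.8 ± 8.44 CPM at 10 days (5.39 ± 0.69), and was 3.52 ± 2.71 CPM at 60 days. Lrrc15 had no fragment in any control and 2.16 ± 1.79 CPM at 10 days, at least 63.5-fold above the level of 3 fragments over the control group. Cnn1 and Actg2, contractile genes of smooth muscle, fell by 1.82 and 1.61 at 10 days. Tagln, Acta2 and Myl9 were also called lower then (-1.29, -1.18 and -1.06). Smooth muscle markers, a list that holds Cnn1 and Actg2, were called lower for 6 of 6 genes at 10 days. Their sums were 131 to 167 CPM against 321 to 442 CPM in controls. Lmod1 made up a large share of the control sums, with means of 145 CPM in controls and 7.35 CPM at 10 days. At 60 days 1 of the 6 was called lower and 5 were not called. The part of smooth muscle in the falls of the contractile genes was not tested.

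Genes of factors that progenitors can secrete rose for 5, 6 and 8 of 10 tested genes at the 3 times and fell for none. The cells that expressed them here were not identified. Fst, follistatin, which binds activin and myostatin, went from 0.910 ± 0.395 CPM in controls to 40.7 ± 9.80 CPM at 10 days, a rise of 5.46 ± 0.35, and was still 31.3 ± 5.33 CPM at 60 days. Grem1, a BMP antagonist, had no fragment in controls and 0.517 ± 0.407 CPM at 30 days, at least 15.2-fold above the same 3-fragment level. Of 9 cytokine receptors, 7 rose and 1 fell at 10 days, 4 rose and 1 fell at 30 days, and 4 rose and none fell at 60 days. Il1r1 rose by 1.10 ± 0.18 and Il4r by 0.95 ± 0.11 at 30 days, while Lifr fell by 0.74 at 10 days.

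A list of 8 genes held PDGF ligands, proteases that activate them, and Pdgfrl. Of these, 1 rose and 3 fell at 10 days, and 3 rose and 3 fell at 30 days. At 60 days 3 rose and 2 fell. The genes that rose were St14 at each time, and Plau and Pdgfrl at 30 and 60 days. No ligand was called higher: Pdgfb and Pdgfc were lower at each time, and Pdgfa and Pdgfd were not called. Pdgfb, the ligand made by endothelium, fell by 1.54 at 10 days and was still -0.98 ± 0.16 at 60 days, and Pdgfc fell by 1.96 at 10 days. Endothelial markers were called lower for 9 of 10 genes at 10 days, with sums of 231 to 353 CPM against 421 to 486 CPM in controls. At 60 days 1 was called higher, 1 was called lower and 8 were not called, with sums of 373 to 575 CPM. The part of endothelium in Pdgfb was not tested. Pdgfrl, a receptor-like protein, rose by 1.52 ± 0.29 at 60 days, and St14, the protease matriptase, by 1.32 ± 0.27 at 30 days. Of 6 fibronectin receptors none was called at 10 days, and 1 rose and 1 fell (Itga4, by 0.71) at 30 days. At 60 days 3 rose, among them Itgb3 (0.79 ± 0.33, edgeR adjusted p = 0.04886) and Itga8 (0.68 ± 0.27). Levels of Itgb3 were low, with means of 0.380 CPM in controls and 0.664 CPM at 60 days. Of the 5 tested relatives of Gsn, Scin rose by 1.86 ± 0.42 at 10 days and Capg by 1.12 ± 0.17 at 60 days. Scin levels were also low, with means of 0.119 CPM in controls and 0.464 CPM at 10 days. Svil fell by 0.99 at 10 days and Flii fell by 0.50 at 60 days.

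**Figure D4:**
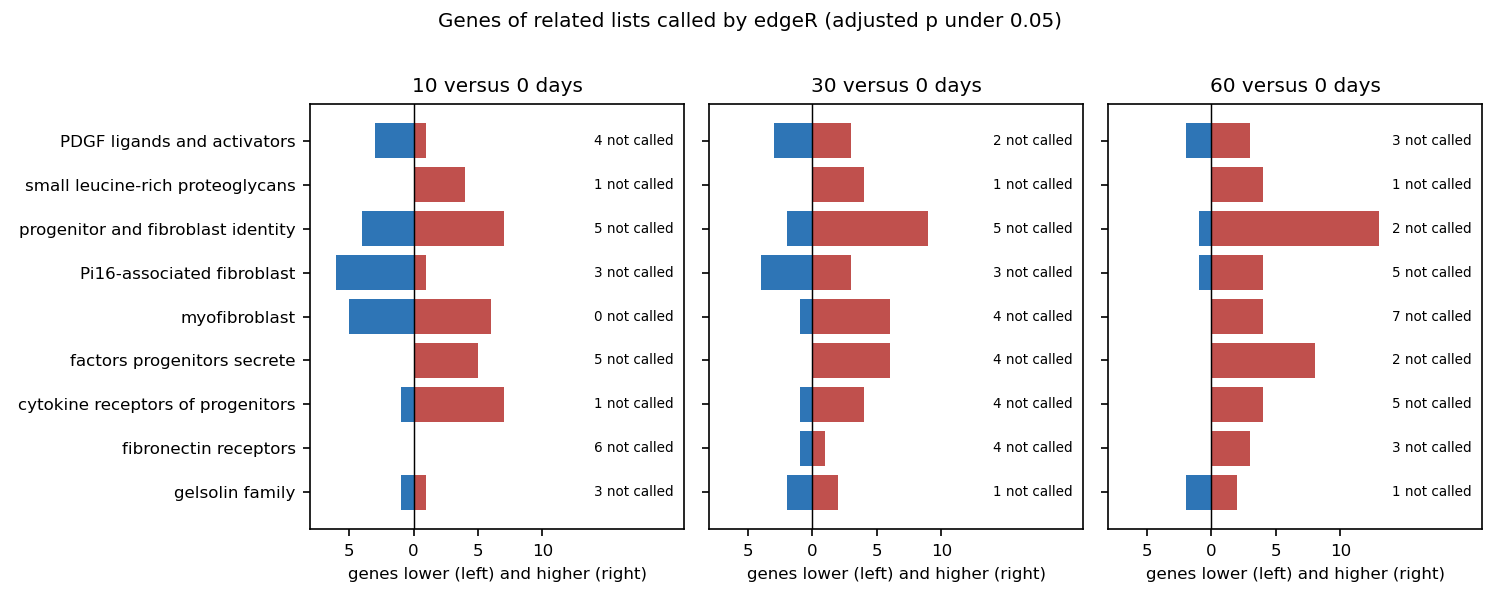
Number of tested genes called higher or lower against 0 days in each related list at 10, 30 and 60 days (edgeR, adjusted p under 0.05). Identity genes go from 7 higher and 4 lower at 10 days to 13 higher and 1 lower at 60 days.

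Markers of other cells changed in the same libraries. Macrophage markers were called higher for 9, 10 and 10 of 10 genes at 10, 30 and 60 days, with sums of 47.3 to 77.9 CPM in controls and 141 to 306 CPM in operated libraries. Of 4 tenocyte markers, 3 were higher at 10 days, 4 at 30 days, and 3 higher and 1 lower at 60 days. Their sums were 71.1 to 95.1 CPM in controls and 126 to 302 CPM after surgery, and Thbs4, a matrix thrombospondin, alone went from 52.2 ± 9.16 CPM in controls to 199 ± 70.1 CPM at 60 days (SD, n = 4). Scx, the transcription factor scleraxis, was the marker that was lower at 60 days: it went from 23.8 ± 1.47 CPM in controls to 62.6 ± 4.44 CPM at 10 days, 30.6 ± 7.03 CPM at 30 days and 7.33 ± 1.19 CPM at 60 days. Both were singled out after their values were seen. Adipocyte markers were not called at 10 or 30 days and were higher for 6 of 7 genes at 60 days, at 98.5 to 222 CPM against 16.9 to 83.7 CPM. Schwann cell markers were lower for 4 of 7 at 10 days and higher for 2 of 7 at 30 days and 6 of 7 at 60 days. The part of each of these cells in the levels of Gsn, Fn1, Dcn and Lum was not tested.

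**Figure D5:**
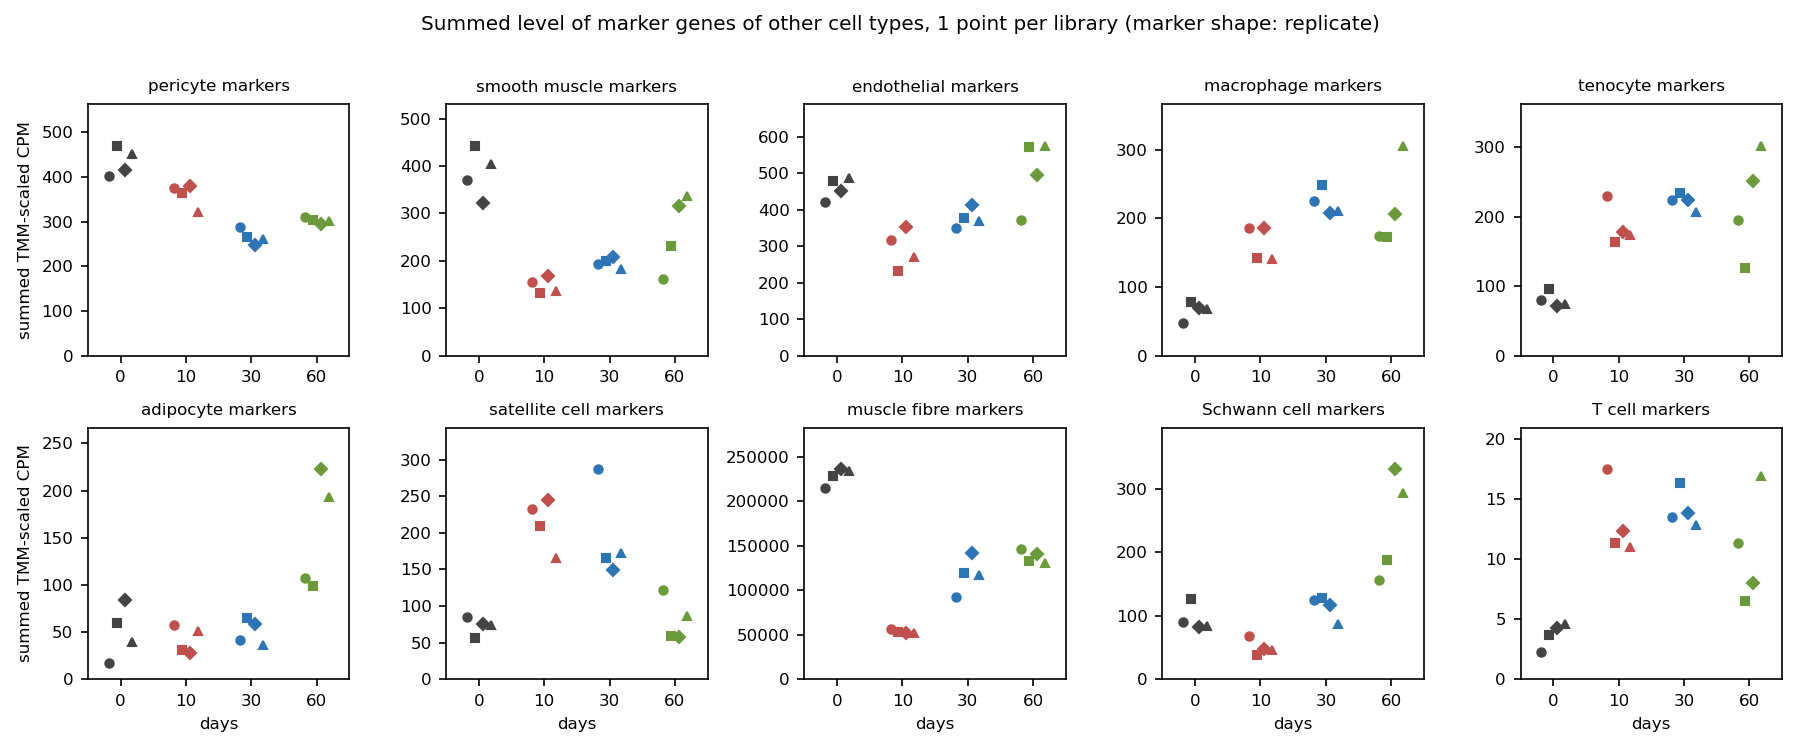
Summed TMM-scaled CPM of marker genes of other cell types, 1 point per library, by days after surgery; marker shape gives the replicate. Macrophage sums lie above the controls at all 3 times, as do tenocyte sums, although 1 of the 4 tenocyte markers (Scx) was lower at 60 days. Muscle fibre sums are lowest at 10 days.

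For each of the 9 genes, the 3 of 8204 eligible genes with the most similar changes were found, by the root mean square difference of the 3 log2 changes over the 16 libraries. This is a description with no test. Dpt was closest to Mfap5, Ppp1r12a and Col14a1 (0.108 to 0.118 log2), and Pi16 to Gpc3, Mfap5 and Ucp2. Pdgfra was closest to Sfrp4 (0.0799), C1qb and Tmsb10, and Fap to Itgbl1 (0.0622), Pak1 and Gpx7. Lum was closest to Tp63, Ppic and Tp53inp1, Fn1 to Ckap4, Atpif1 and Cp, and Dcn to Islr and Fcn1. Gsn was closest to F3 and Arhgap18, and Pdgfrb to Nlrp1a (0.0128), Slc35f5 and Sod1. C1qb is also in the macrophage list.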

How the data were processed

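Poly(A) RNA of supraspinatus was measured in 16 libraries, 4 per group, prepared with the miRNeasy and TruSeq mRNA kits per the labels. The authors deposited 1 table of expected counts, fragments per gene with no scaling for depth or length; 233 genes have fractional values, and the counts of the 10 genes are whole. The submitters' processing notes name bcl2fastq 1.8.4, FastQC, TopHat2 2.0.9, Bowtie2 2.1.0.0, Cufflinks, Cuffdiff 2.1.1 and build rn5, without their roles. Annotation, strand setting and filters are not given in the sources used here. Counts were rounded, filtered (filterByExpr), TMM-scaled and fitted across all genes in 1 model of the 4 groups with edgeR 4.0.16 (robust quasi-likelihood, R 4.3.3), with Benjamini-Hochberg adjustment. In simulated data with 200 genes changed at 10 days, the fit recovered 165 at 2-fold and 93 at 1.5-fold. It called 3 and 9 unchanged genes in those runs. Smaller changes can therefore be missed. Far more genes were called in the real data than were changed in the simulation, so it does not check the scaling. DESeq2 1.42.0, other scalings, filters and left-out libraries were alternatives.

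The 10 genes, the related lists and the tests were chosen with earlier results of these data known. From each related list the text names up to 2 genes with the largest rise and 2 with the largest fall among those called. Further genes of the PDGF, myofibroblast, pericyte and smooth muscle lists were named after their values were seen. Smooth muscle, macrophage and other marker lists are given by counts and sums. Ratios use counts with 0.5 added. Promoter windows of 250 bases come from RefSeq (GRCr8); the 4 printed were chosen after the values were seen, and 9 motifs were searched, all of them reported. Same-numbered libraries were checked for pairing (see the closing part). No table column was left unused. Some genes that the rule of most similar changes picks are not reported here.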

Additional observations from a re-analysis of the deposited data

Results flagged for a closer look

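The change against 0 days differed between operated groups for 7 of the 9 genes, by edgeR's test of the difference itself; the controls cancel, so each value is the log2 difference between the 2 operated groups. From 10 to 30 days the difference was 0.68 for Pdgfra, 0.91 for Dcn, 0.95 for Dpt, 1.05 for Gsn, 0.87 for Fap and 1.49 for Pi16. From 30 to 60 days it was 0.88 for Gsn. From 10 to 60 days it was 0.79 for Pdgfra, 0.41 for Pdgfrb, 1.39 for Dcn, 1.37 for Dpt, 1.93 for Gsn, 0.80 for Fap and 1.86 for Pi16. No library stood out from its group by Dixon's test in 56 groups of 4, where chance alone marks about 1 in 20.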

How the results depend on the processing

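The counts of called genes kept within 1.5 times of their value under most alternatives. With library totals 8 genes were called at 10 days. DESeq2 called 2 from 30 to 60 days (it added Dcn), as did a fit of only those 2 groups (it added Pdgfrb). Library totals moved the median of all genes to 0.72, 0.54 and 0.45 at the 3 times and the share of calls that were higher from 53.1% to 87.4% at 10 days, and upper-quartile factors moved it from 50.7% to 63.6% at 60 days. Signs turned in these cases, the cause not being tested: with library totals, Gsn 0.19 and Pi16 0.64 at 10 days, Pdgfrb -0.11 from 10 to 30 days and Lum -0.082 from 10 to 60 days; with upper-quartile factors, Pi16 0.030 at 10 days and Fn1 0.014 from 10 to 60 days; with the title letter as covariate, Lum 0.074 from 30 to 60 days. With control replicate 1 and 60-day replicate 4 removed, chosen after seeing the data, Pdgfrb was -0.037 and Dcn -0.024 at 10 days, Pdgfra -0.094 from 30 to 60 days and Lum -0.088 from 10 to 60 days. From 10 to 60 days, Pdgfrb (0.16) and Fap (0.56) lost their calls with library totals, and Pdgfrb (0.42) in a fit of the 2 groups.

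Leaving out 1 library at a time gave 3 to 5 called genes at 10 days, 8 at 30, 9 at 60, 6 from 10 to 30, 1 to 2 from 30 to 60 (2 without control replicate 1, 10-day replicate 2, or 60-day replicate 1 or 2) and 6 to 7 from 10 to 60 days. Uncalled values that changed sign ranged at 10 days over -0.025 to 0.18 (Dcn), -0.058 to 0.19 (Pdgfrb) and -0.18 to 0.14 (Pi16); from 10 to 30 days over -0.093 to 0.16 (Pdgfrb); from 30 to 60 days over -0.31 to 0.10 (Fap), -0.30 to 0.11 (Lum) and -0.094 to 0.22 (Pdgfra); and from 10 to 60 days over -0.30 to 0.19 (Fn1) and -0.087 to 0.33 (Lum). The ratio Fap to Pdgfra ranged over -0.20 to 0.10 at 30 days and -0.10 to 0.075 from 10 to 60 days; with 3 libraries left in a group its exact test cannot reach 0.05.

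Deviations of same-numbered libraries from their group means had correlations of -0.237 to 0.216. Their mean was 0.00129, beside -0.000124 for other pairs. Such deviations sum to 0 within each group, which holds the mean over all pairs near 0. The check therefore does not settle whether same-numbered libraries are paired. With the replicate block, Pi16 at 10 days was 0.0038 and the count of called genes there stayed at 4. Thinning counts to the smallest library changed no call.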
